A study of Mus musculus with 4 samples.

Results

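The genes described here are 37 nuclear receptors, a list taken by gene symbol out of the 48709 genes counted in mouse liver. Each Ensembl identifier was matched to its mouse symbol, and all 37 symbols were found. By class, 10 are receptors of metabolic ligands or of lipid and drug metabolism, 6 are retinoid receptors, 4 are steroid receptors and 17 are orphan receptors. In all, 29 of the 37 had enough reads to be tested for a difference between the genotypes, and 27 had a mean of at least 1 CPM (counts relative to the library size, as scaled by edgeR's TMM method).

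Nuclear receptors are transcription factors that carry a DNA-binding domain and a domain for small lipophilic ligands such as bile acids, oxysterols, thyroid hormone, retinoic acid and steroids. Many act as dimers with a retinoid X receptor, exchange corepressors for coactivators when ligand binds, and recognise copies of the hexamer AGGTCA. In hepatocytes they set the transcription of genes for lipid, glucose, bile acid and drug metabolism, and HNF4A is a central regulator of hepatocyte identity.

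The libraries came from livers of untreated adult C57BL/6 mice, and the comparison asks which transcripts depend on DDI2, an aspartic protease that processes the transcription factor NRF1. The 2 WT libraries were from littermates with floxed Ddi2 alleles (Ddi2 flox/flox) and no Cre recombinase. The 2 libraries labelled DDI2-KO were from Ddi2 flox/flox Alb-Cre+ mice, which carry the same floxed alleles and express Cre under the albumin promoter. The deletion is thereby directed to hepatocytes, so the other cells of a DDI2-KO liver are expected to keep the gene. The files hold raw counts of reads per gene from polyadenylated RNA of whole liver, in which fewer cells of a type and less RNA per cell cannot be told apart.

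The libraries held between 22501208 and 34109018 reads on genes, more in both WT libraries than in both others. Ddi2 itself gave 4749 and 3812 reads for WT, and 4068 and 3777 for DDI2-KO-labelled livers (log2 fold change 0.28, edgeR adjusted p = 0.349). A count over the whole gene does not show the loss of a floxed exon, so it does not check the labels. The 6 hepatocyte markers summed to between 151953 and 183341 CPM per library and none passed the test. By contrast, 2 of 3 adipocyte markers and 3 of 4 acinar markers had no reads. Adipoq, the remaining adipocyte marker, had at most 2 reads per library. Cela1, the remaining acinar marker, was detected throughout, from 6.34 CPM (WT library 2) to 19.4 CPM (WT library 1). DDI2-KO libraries 1 and 2 lay between these, at 14.3 and 11.8 CPM of Cela1. Of 4 Y-linked genes, all had 0 reads in every library. Reads assigned to no gene relative to those on genes were 5.11% and 4.70% in WT against 2.53% and 3.65% in DDI2-KO-labelled livers.

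None of the 29 tested receptors passed an adjusted p of 0.05 in edgeR's quasi-likelihood test, in either direction. Of all 13699 genes tested, 2.53% passed, 1.33% being higher and 1.20% lower in DDI2-KO-labelled livers. At an unadjusted p under 0.05 there were 7 receptors (24.1%), against 23.5% of all genes. The 2 higher ones were Nr2f6 and Esr1 (12.0% of all genes were higher at this level), and the 5 lower ones were Nr2f2, Hnf4g, Nr2c1, Nr1i3 and Rarg (11.5% of all genes were lower). Other tools gave few calls as well, with 0 receptors under limma-voom and limma-trend and 1, Nr2f6, under DESeq2.

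The receptors' own sequences at the 5′ end differed in composition, which is shown for Nr2f6 and Nr2f2. These are paralogs of the COUP-TF family whose log2 fold changes had opposite signs. Of the 37 receptors, 35 matched the RefSeq promoter windows of GRCm38.p6 (Hnf4g and Thra did not), with 54 windows in all, each running from 250 bases before to 50 bases after an annotated start. The 100 bases just before the start are printed 5′ to 3′ on the gene's strand, chr8:71381953-71382052 (minus strand) for Nr2f6 and chr7:70366747-70366846 (minus strand) for Nr2f2, with the GC box GGGCGG or its reverse complement CCGCCC in capitals.
Nr2f6: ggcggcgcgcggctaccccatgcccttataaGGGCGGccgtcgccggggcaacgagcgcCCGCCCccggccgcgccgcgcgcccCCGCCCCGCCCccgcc
Nr2f2: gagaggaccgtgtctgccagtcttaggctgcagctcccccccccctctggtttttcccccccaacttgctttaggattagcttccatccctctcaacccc
The Nr2f6 stretch held 4 GC boxes, of which the last pair overlap, at 86% GC and with 20 CpG dinucleotides. The Nr2f2 stretch held 0 GC boxes, at 59% GC and with 1 CpG. Over all windows of these lengths the medians were 55% GC and 3 CpG, and 24.7% held a GC box. Across the whole 300-base windows, 19 of 35 receptors (54.3%) held a GC box on either strand, against 38.2% of all genes with a window, and by window the shares were 42.6% and 35.7%. The receptor half-site AGGTCA, searched on both strands, was in 8 of 35 receptors (22.9%) and in 18.1% of all genes. By window the order turned, with 14.8% of the receptor windows and 16.3% of all windows.

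The antioxidant response element is shown because NRF1 binds such elements. Its core was searched as TGACNNNGC on both strands, and it was in 8 of 35 receptors (22.9%) and in 14% of all genes. By window this was 14.8% of the 54 receptor windows and 12.4% of all 32851. The 6 matches in receptors that were tested are printed with 10 bases on each side, core in capitals, each read 5′ to 3′ on the gene's strand.
Rxrg, chr1:167618067-167618095: cagagtctccTGACTAAGCcaaacctggc
Esrrg, chr1:187652249-187652277: gctgcagttcTGACCCTGCcaaaggtaac
Nr6a1, chr2:38926607-38926635: gagaaaactcTGACATAGCcgtttattat
Rara, chr11:98939707-98939735: cctccggtggGCACAGTCAcccacacacg
Thrb, chr14:17660894-17660922: ccggccggcgTGACGCGGCgggattaact
Ppard, chr17:28232740-28232768: tgggagcgtgTGACGCCGCaggccgcggc
The Rara match lies on the opposite strand and so reads as the reverse complement. The cores of Rxrg and Nr6a1 began 188 and 164 bases before a start, those of Thrb and Ppard 56 and 4 bases before, and those of Rara and Esrrg 6 and 18 bases after it. None of these 6 receptors was among the 7 with an unadjusted p under 0.05, and their log2 fold changes ran from -0.26 for Esrrg to 0.13 for Rxrg. A match is a string of letters in a window and was not tested as a binding site.

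Receptor levels were compared between genes per kilobase of annotated exon (CPM per kb), as a mean over the 4 libraries. Hnf4a was the highest of the 37 at 120.1 ± 15.6 CPM per kb (SD, n = 4), above 97.7% of all tested genes. Rxra followed at 53.1 ± 10.9, Nr1i3 at 40.7 ± 10.1, Nr1h3 at 30.7 ± 4.49, Nr1i2 at 24.1 ± 3.06 and Nr5a2 at 11.9 ± 1.79 CPM per kb (SD, n = 4). These 6 genes together made up between 82.1% and 83.6% of the per-length total of the 37 in each library. The metabolic class held 65.7% to 69.8% of that total, the retinoid class 16.6% to 23.1%, the orphan class 9.03% to 11.6% and the steroid class 1.35% to 2.02%.

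Further down, the order of levels was not resolved by these libraries. Of the 28 neighbouring pairs among the tested receptors, 7 had the same order in all 4 libraries. In the top 6, Nr1i3 and Nr1h3 changed places in 1 library. With the length of the longest transcript in place of all exons, Nr1i3 (60.3 CPM per kb) stood above Rxra (59.1). Nr2f6, Nr1h2, Rxrb and Thrb lay between 7.37 and 4.85 CPM per kb, with no fixed order among neighbours.

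**Figure D1:**
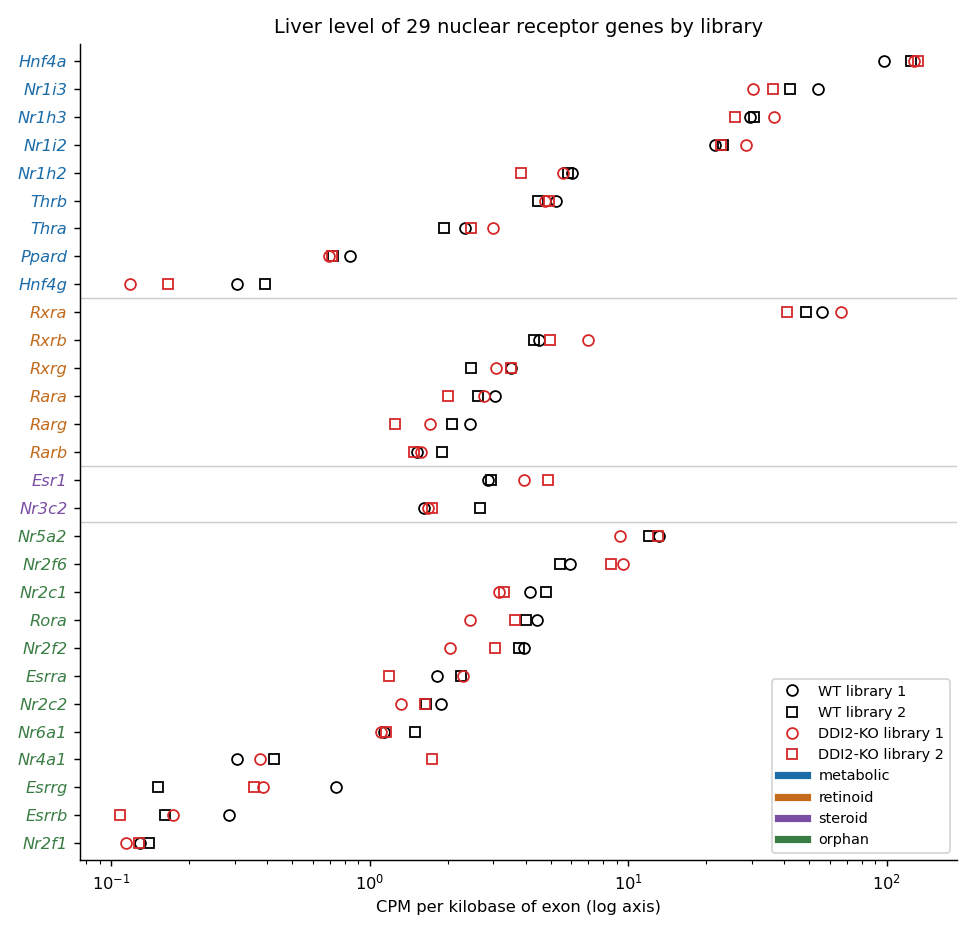
Level of the 29 tested receptors in each library, in CPM per kilobase of exon on a log axis, with WT in black, DDI2-KO in red, library 1 as circles and library 2 as squares, and gene names coloured by class. Hnf4a lies near 120.1 CPM per kb on average and Nr2f1, the lowest, near 0.128. The red and black symbols do not overlap in 15 of the 29 genes (51.7%), against 55.7% of all genes tested.

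Among the 8 receptors below the filter, no library had more than 14 reads on any of them. Nr0b1 (DAX1), Nr2e3 (a photoreceptor regulator) and Rorb had 0 reads in all libraries, and a floor of 3 counts corresponds to 0.0892 to 0.131 CPM. Esr2, the other estrogen receptor, was covered by a single read in 1 library, and the progesterone receptor gene Pgr by 1 and 2 reads in WT, and by 1 and 0 in DDI2-KO-labelled livers. The vitamin D receptor gene Vdr was covered by 4 and 5 reads in WT, and by 1 and 2 in DDI2-KO-labelled livers. The inducible orphan receptors Nr4a2 and Nr4a3 had 5 to 14 and 3 to 6 reads. These 8 genes were not tested for a difference between the groups.

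The metabolic receptors were led by Hnf4a (ENSMUSG00000017950, chromosome 2 of GRCm38, 163506808 to 163572910). Hnf4a had 469 and 600.1 CPM in WT and 616 and 634 CPM in DDI2-KO-labelled livers. Both of the latter lay above both WT libraries, but the WT libraries were further apart from each other than the groups' nearest values. The log2 fold change of Hnf4a was 0.23, with a 95% interval from -0.21 to 0.66 (edgeR adjusted p = 0.514). Its paralog Hnf4g, which is expressed mainly in the intestine, was covered by 27 and 32 reads in WT, and by 8 and 10 in DDI2-KO-labelled livers. Hnf4g thus lay lower in both libraries labelled DDI2-KO, at a log2 fold change of -1.30 (interval -2.37 to -0.23, edgeR adjusted p = 0.147), and made up at most 0.316% of the HNF4 family's level per length in any library.

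Nr1i3 encodes CAR, the receptor that responds to phenobarbital-like drugs and bilirubin. It had 239 and 187 CPM in WT and 134 and 159.8 CPM in DDI2-KO-labelled livers, so the groups did not overlap. The log2 fold change of Nr1i3 was -0.54 (interval -0.98 to -0.09, edgeR adjusted p = 0.152). Of the exon bases of Nr1i3, 74.9% are also exon of Tomm40l, a mitochondrial import gene on the opposite strand. Tomm40l had 5.23 and 9.65 CPM in WT and 16.1 and 17.4 CPM in DDI2-KO-labelled livers, a log2 fold change of 1.17 (edgeR adjusted p = 0.0702). The strand setting of the counting is not given in the sources used here, so the part of this overlap in the count of either gene was not tested. Nr1i2 encodes PXR, the receptor of many foreign compounds and bile acids. Nr1i2 had 55.4 and 59.5 CPM in WT and 72.9 and 58.0 CPM in DDI2-KO-labelled livers, with overlapping groups and a log2 fold change of 0.19 (interval -0.20 to 0.58).

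The liver X receptors bind oxysterols and drive cholesterol efflux and lipogenic genes. Nr1h3 (LXRα) had 74.6 and 77.3 CPM in WT and 92.3 and 65.0 CPM in DDI2-KO-labelled livers, which lay on both sides of WT (log2 fold change 0.05, interval -0.40 to 0.50). Nr1h2 (LXRβ) had 20.3 and 19.5 CPM in WT and 18.7 and 12.8 CPM in DDI2-KO-labelled livers, both lower than WT, with a log2 fold change of -0.34 (interval -0.82 to 0.14, edgeR adjusted p = 0.366). Within the pair, Nr1h3 made up 83.0% and 84.1% of the level per length in WT and 86.8% and 87.1% in DDI2-KO-labelled livers.

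Thyroid hormone receptors bind triiodothyronine, and the β form is the main one in liver. Thrb had 38.8 and 32.9 CPM in WT and 35.2 and 36.6 CPM in DDI2-KO-labelled livers. The latter lay between the WT values, and the log2 fold change of Thrb was 0.00 with an interval from -0.37 to 0.37. Thra had 10.8 and 8.97 CPM in WT and 13.9 and 11.4 CPM in DDI2-KO-labelled livers, without overlap (log2 fold change 0.36, interval -0.11 to 0.83, edgeR adjusted p = 0.328). Thrb was 69.2% and 69.6% of the pair per length in WT and 61.2% and 66.7% in DDI2-KO-labelled livers. With the longest transcript as the length, these shares were 58.8% and 59.2% in WT and 50.1% and 56.0% in DDI2-KO-labelled livers. Ppard, the fatty acid receptor PPARδ, had 6.28 and 5.41 CPM in WT and 5.22 and 5.35 CPM in DDI2-KO-labelled livers, where the groups were apart by less than 0.1 CPM (log2 fold change -0.15, interval -0.65 to 0.36). Of the exon bases of Thra, 5.70% are also exon of the clock repressor gene Nr1d1 on the opposite strand. Nr1d1 had 152 and 176 CPM in WT and 145 and 69.2 CPM in DDI2-KO-labelled livers (log2 fold change -0.62, edgeR adjusted p = 0.318). The part of this overlap in the count of Thra was not tested.

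The retinoid X receptors are the shared dimer partners of CAR, PXR, LXR, the thyroid hormone receptors and the retinoic acid receptors. Rxra, the main one in liver, had 305 and 266 CPM in WT and 364 and 225 CPM in DDI2-KO-labelled livers. The 2 libraries labelled DDI2-KO thus held its highest and lowest value, and its log2 fold change was 0.04 (interval -0.52 to 0.61, edgeR adjusted p = 0.937). Rxrb had 17.9 and 17.2 CPM in WT and 27.6 and 19.8 CPM in DDI2-KO-labelled livers, both above WT (log2 fold change 0.44, interval -0.02 to 0.89, edgeR adjusted p = 0.226). Rxrg had 8.09 and 5.63 CPM in WT and 7.03 and 8.05 CPM in DDI2-KO-labelled livers, with overlap and a log2 fold change of 0.13 (interval -0.42 to 0.69). Rxra made up between 82.9% and 87.8% of the family's level per length in the 4 libraries.

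The retinoic acid receptors lay close together in level per length, at 2.61 for Rara, 1.87 for Rarg and 1.62 CPM per kb for Rarb. Rara had 13.3 and 11.4 CPM in WT and 12.1 and 8.75 CPM in DDI2-KO-labelled livers. Rarb, a retinoic acid-induced gene of stellate cells as well as a receptor, had 8.0 and 10 CPM in WT and 8.27 and 7.83 CPM in DDI2-KO-labelled livers. Both genes overlapped between the groups, with log2 fold changes of -0.25 (interval -0.75 to 0.26) for Rara and -0.16 (interval -0.64 to 0.32) for Rarb. Rarg had 10.4 and 8.87 CPM in WT and 7.30 and 5.31 CPM in DDI2-KO-labelled livers, both lower than WT (log2 fold change -0.61, interval -1.14 to -0.08, edgeR adjusted p = 0.169). Its share of the family per length was 34.8% and 31.5% in WT and 28.3% and 26.3% in DDI2-KO-labelled livers. Of the exon bases of Rarb, 34.1% are also exon of Top2b on the opposite strand, which had a log2 fold change of -0.46 (edgeR adjusted p = 0.151).

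Among the steroid receptors 2 were expressed. Esr1 encodes estrogen receptor α, the main estrogen receptor of hepatocytes. It had 39.0 and 40.0 CPM in WT and 53.9 and 66.7 CPM in DDI2-KO-labelled livers, so both of the latter were higher. Its log2 fold change was 0.61 (standard error 0.17, interval 0.23 to 0.99), or 1.53-fold, with an edgeR adjusted p of 0.0843. Among all 13699 genes, Esr1 ranked 1000 by p. Nr3c2, the mineralocorticoid receptor gene, had 10.5 and 17.2 CPM in WT and 10.9 and 11.3 CPM in DDI2-KO-labelled livers, which lay between the WT values (log2 fold change -0.32, interval -0.90 to 0.25).

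The orphan class held the receptor with the smallest p, Nr2f6 (ENSMUSG00000002393, chromosome 8 of GRCm38, 71374123 to 71381960), which encodes EAR2, a COUP-TF related repressor. It had 17.7 and 16.3 CPM in WT and 28.5 and 25.5 CPM in DDI2-KO-labelled livers, so the groups were clearly apart relative to the spread within each. Its log2 fold change was 0.67 (standard error 0.17, interval 0.29 to 1.05), or 1.59-fold, and its adjusted p of 0.0702 from edgeR missed the threshold. By p, Nr2f6 ranked 693 of all genes. Of its exon bases, 54.4% are also exon of Ocel1 on the opposite strand, and Ocel1 had 4.40 and 4.40 CPM in WT and 3.48 and 3.83 CPM in DDI2-KO-labelled livers. The log2 fold change of Ocel1 was -0.27 (edgeR adjusted p = 0.533), and the part of this overlap in the count of Nr2f6 was not tested.

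Nr2f2 encodes COUP-TFII, which is known from venous endothelium and mesenchymal cells as well as hepatocytes. It had 33.9 and 32.7 CPM in WT and 17.6 and 26.2 CPM in DDI2-KO-labelled livers, both lower than WT. Its log2 fold change was -0.61 (interval -1.09 to -0.12, edgeR adjusted p = 0.139). Beside it, the 6 endothelial markers summed to 391 and 360 CPM in WT and 363 and 343 CPM in DDI2-KO-labelled livers, with 3 of the 6 log2 fold changes positive, 3 negative and a median of -0.02. Of these 6, Stab2 passed the test and was lower (log2 fold change -1.10, edgeR adjusted p = 0.0288, above 0.05 without WT library 1). The 6 stellate markers summed to 639 and 676 against 573 and 563 CPM. All 6 stellate markers had a negative log2 fold change (51.3% of all genes tested) and none passed the test. At an unadjusted p under 0.05 by edgeR, 2 of the 6 stellate markers were lower (11.5% of all genes). Among the 6 endothelial markers 2 were also lower at this level, Stab2 and Lyve1 (log2 fold change of Lyve1 -0.67). The part of these cells in the values of Nr2f2 was not tested. Nr2f1 had 15 to 22 reads in each library.

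Within the COUP-TF family the make-up per length followed from these opposite signs. Nr2f6 was 59.3% and 58.2% of the family in WT and 81.6% and 72.9% in DDI2-KO-labelled livers, and Nr2f2 was 39.4% and 40.3% against 17.4% and 26.0%. With the longest transcript as the length, Nr2f6 was 49.1% and 48.0% in WT and 74.7% and 64.2% in DDI2-KO-labelled livers. The gene with the larger share in WT thus depended on the length used. A change of length scales a gene by the same factor in every library. The order of the libraries in the ratio of Nr2f6 to Nr2f2 therefore could not change, and its persistence is no further evidence. With 2 libraries against 2, an exact permutation test of a single share cannot reach 0.05, and no test was made.

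**Figure D2:**
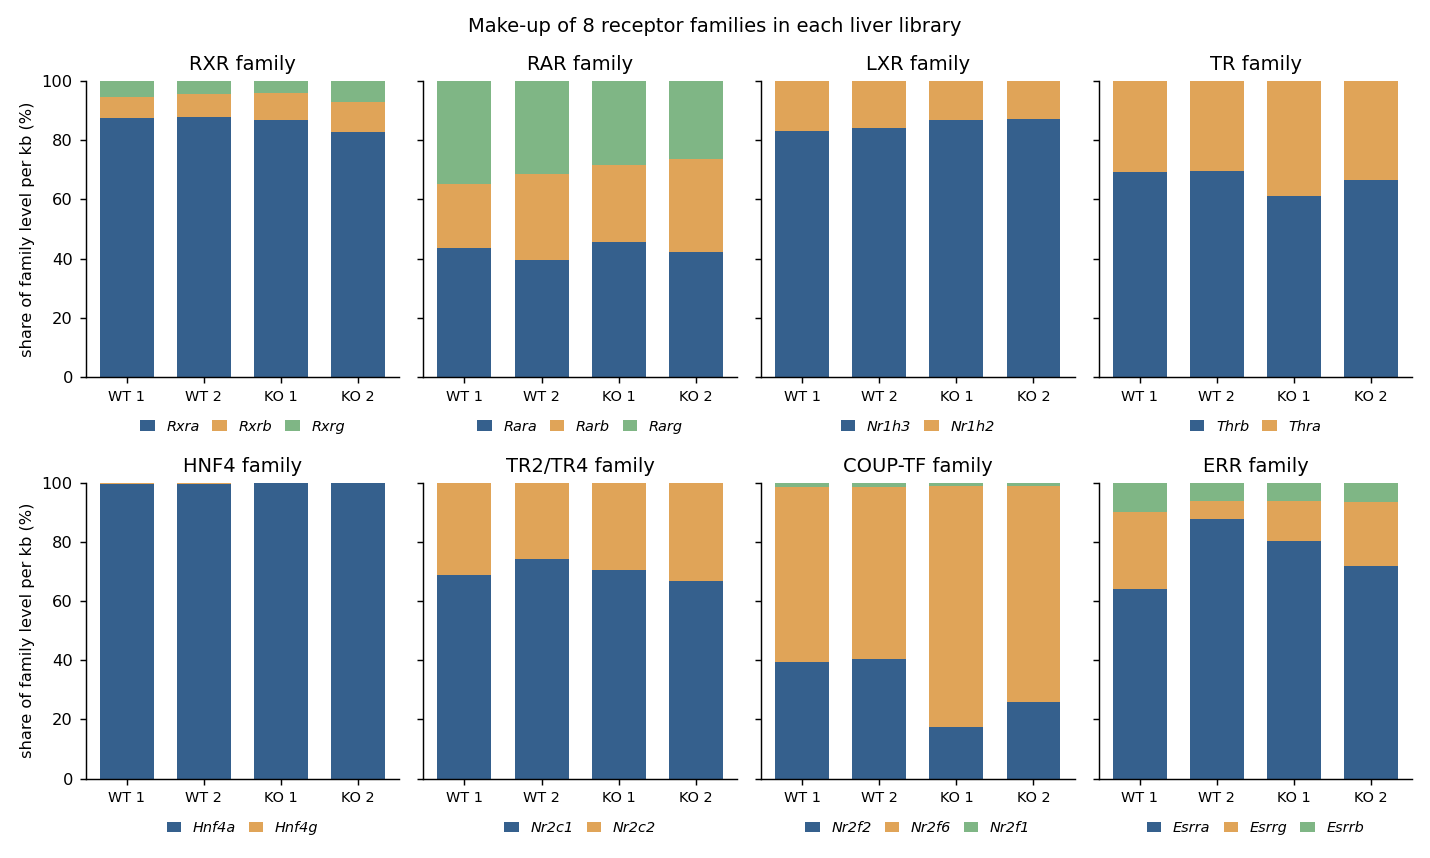
Share of each gene in the summed level per kilobase of its receptor family, in percent, as stacked bars for the 2 WT libraries (WT 1, WT 2) and the 2 libraries labelled DDI2-KO (KO 1, KO 2). Rxra and Hnf4a made up over 82% and 99% of their families in every library, and Nr2f6 stands at 59.3% and 58.2% in the WT bars and at 81.6% and 72.9% in the KO bars.

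The other orphan receptors had smaller or less even differences. Nr5a2 (LRH-1), a regulator of bile acid synthesis, had 77.7 and 70.6 CPM in WT and 54.9 and 76.9 CPM in DDI2-KO-labelled livers, with overlap (log2 fold change -0.17, interval -0.62 to 0.28). Rora, a receptor of the circadian and lipid programmes, had 58.1 and 52.6 CPM in WT and 31.9 and 47.6 CPM in DDI2-KO-labelled livers. Both of the latter were lower, at a log2 fold change of -0.48 (interval -0.96 to 0.00, edgeR adjusted p = 0.215). Nr2c1 (TR2) had 19.2 and 22.0 CPM in WT and 14.5 and 15.1 CPM in DDI2-KO-labelled livers, also without overlap (log2 fold change -0.48, interval -0.87 to -0.08, edgeR adjusted p = 0.148). Nr2c2 (TR4) had 28.2 and 24.6 CPM in WT and 19.7 and 24.5 CPM in DDI2-KO-labelled livers, where the nearest values differed by about 0.1 CPM and the log2 fold change was -0.26 (interval -0.67 to 0.16). Of the stretches of 50 bases of Nr2c2, 10.04% occur in annotated transcripts of other genes, the highest share among the receptors, and 30.7% of its exon bases are also exon of Mrps25 on the opposite strand, so its count is less certain. Nr6a1 (GCNF), known from germ cells and early development, had 12.3 and 16.2 CPM in WT and 12.0 and 12.4 CPM in DDI2-KO-labelled livers, with overlap (log2 fold change -0.22, interval -0.68 to 0.24).

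The estrogen-related receptors regulate mitochondrial genes together with PGC-1 coactivators. Esrra had 7.97 and 9.87 CPM in WT and 10.1 and 5.18 CPM in DDI2-KO-labelled livers. Esrrg had 4.58 and 0.939 CPM in WT and 2.40 and 2.22 CPM in DDI2-KO-labelled livers. Esrrb had 1.73 and 0.971 CPM in WT and 1.04 and 0.653 CPM in DDI2-KO-labelled livers. All 3 genes overlapped between the groups, and Esrrg was spread most within WT. Their log2 fold changes were -0.22 for Esrra (interval -0.95 to 0.51), -0.26 for Esrrg (interval -1.98 to 1.46) and -0.66 for Esrrb (interval -1.68 to 0.36).

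Nr4a1 (NUR77) is an immediate early gene as well as an orphan receptor. It had 1.07 and 1.49 CPM in WT and 1.31 and 6.09 CPM in DDI2-KO-labelled livers, so a single library stood high and the other lay between the WT values. Its log2 fold change of 1.52 (interval -0.24 to 3.29, edgeR adjusted p = 0.266) was 0.05 without DDI2-KO library 2 and 2.25 without DDI2-KO library 1, where the adjusted p was 0.0282. Of 7 other immediate early genes tested, 3 were higher with an adjusted p under 0.05 from edgeR, as were 1.33% of all genes. Fos had 1.22 and 1.10 CPM in WT and 6.30 and 8.40 CPM in DDI2-KO-labelled livers (log2 fold change 2.66, edgeR adjusted p = 0.0120). Jun (1.42, adjusted p = 0.0362) and Dusp1 (2.14, adjusted p = 0.0438) were also higher by edgeR's test. Fos passed under all 14 alternatives, Jun not without WT library 2 or DDI2-KO library 1 nor under limma-voom and limma-trend, and Dusp1 not without WT library 2. Egr1 had 27.0 and 41.4 CPM in WT and 146 and 43.2 CPM in DDI2-KO-labelled livers, so its high library was the other one.

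Taken as a list, 10 of the 29 tested receptors had a positive and 19 a negative log2 fold change, with a median of -0.17 against -0.01 over all genes, of which 51.3% were negative. The median was 0.00 over 9 metabolic receptors, -0.06 over 6 retinoid, 0.14 over 2 steroid and -0.24 over 12 orphan receptors, of which 10 were negative. The groups did not overlap in 15 of the 29 (51.7%), and in 55.7% of all genes tested. The 95% intervals had a median half-width of 0.48 on the log2 scale, from 0.37 to 1.77. For 21 of the 29 receptors the whole interval lay within 1 log2 unit of no difference, so that a 2-fold difference was outside it.

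**Figure D3:**
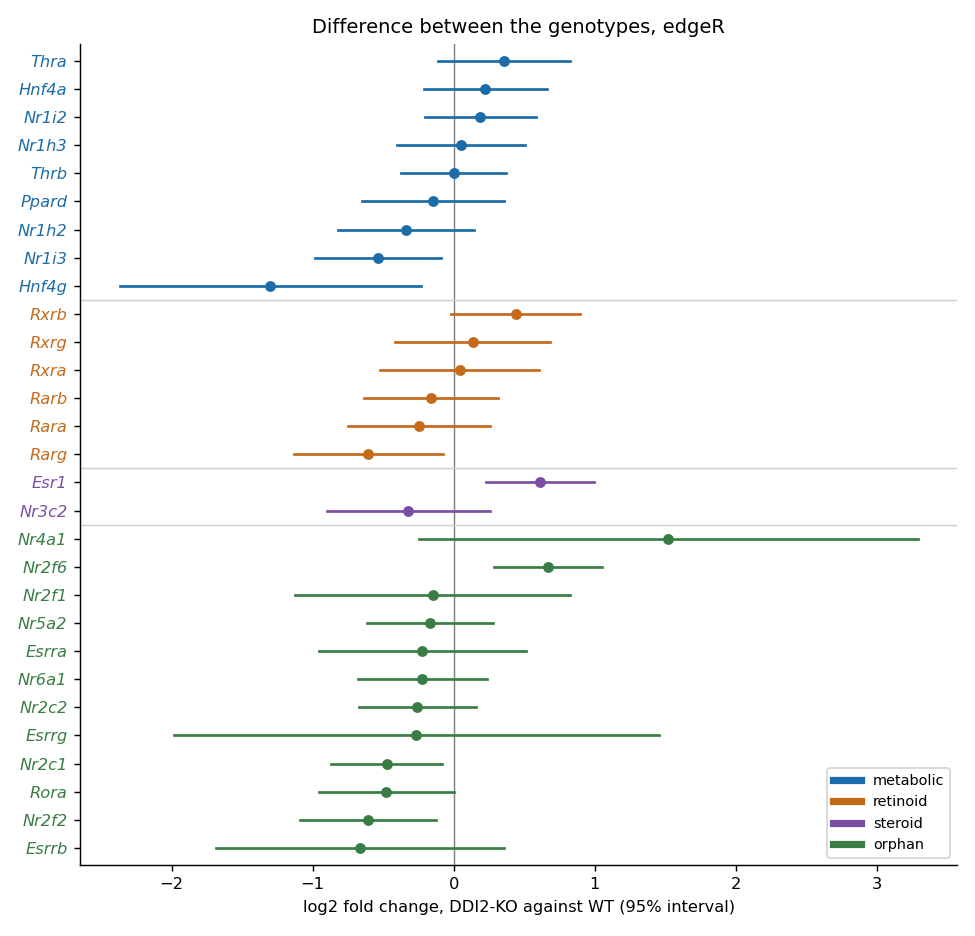
Log2 fold change of the 29 tested receptors, DDI2-KO-labelled livers against WT, with points for the edgeR estimate and bars for its 95% interval, ordered within each class. The intervals of 7 receptors lie clear of 0, among them Nr2f6 (0.29 to 1.05), Esr1 (0.23 to 0.99) and Nr2f2 (-1.09 to -0.12), and none of the 29 had an adjusted p under 0.05.

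Differences between libraries of the same genotype were set beside those between genotypes. In 21 of the 29 receptors, a pair of libraries of 1 group was further apart than the groups, the DDI2-KO pair in 15 and the WT pair in 12. The median absolute log2 difference was 0.32 within the DDI2-KO pair and 0.22 within the WT pair, against a median absolute log2 fold change of 0.26. Over all genes these values were 0.27, 0.19 and 0.30. A difference between 2 single libraries varies more than one between means of 2 libraries, so these values are not on an equal footing. Across the 29 receptors, the difference between DDI2-KO library 2 and library 1 had a Spearman correlation of -0.57 with the GC content of the longest transcript, the WT pair -0.11 and the log2 fold change 0.42. These correlations are across genes of the same 4 libraries, which are not independent, and are given as a description. Rxra (57.0% GC) and Esrra (50.3% GC) were lower in DDI2-KO library 2 than in library 1 by 0.70 and 0.96 on the log2 scale. The part of GC content in the differences was not tested.

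**Figure D4:**
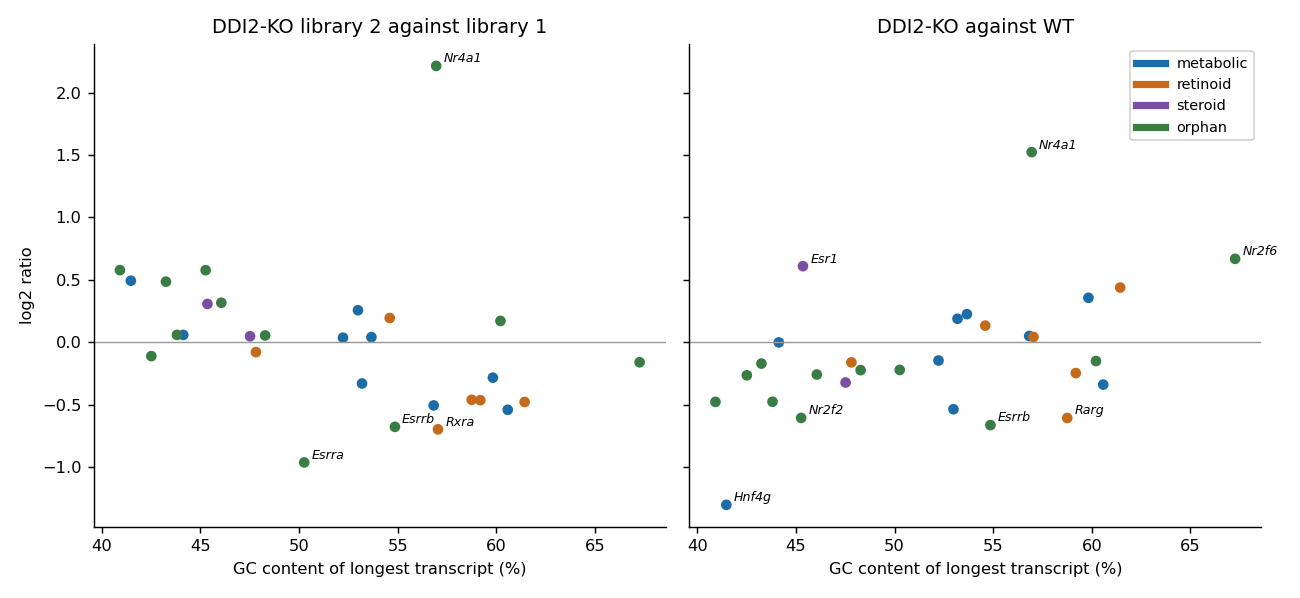
GC content of the longest transcript in percent against log2 ratio for the 29 tested receptors, with DDI2-KO library 2 against library 1 on the left and DDI2-KO against WT on the right, points coloured by class and named beyond 0.6. On the left the points tend to fall with GC content (Spearman -0.57), with several off this trend and Nr4a1 highest at 2.21. On the right Nr2f6, the receptor with the highest GC content (67.3%), lies at 0.67.

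Coregulators connect receptors with chromatin and the transcription machinery. Of 10 coactivator genes, none passed edgeR's test at an adjusted p of 0.05, 5 had an unadjusted p under 0.05, all lower (11.5% of all genes tested), and 9 had a negative log2 fold change (51.3% of all genes). DESeq2 called 2 of them, limma-voom and limma-trend 0. Ppargc1a (PGC-1α), the coactivator of fasting and mitochondrial genes, had 15.9 and 13.3 CPM in WT and 7.38 and 8.79 CPM in DDI2-KO-labelled livers (log2 fold change -0.86, edgeR adjusted p = 0.0650). Ppargc1b had 3.33 and 4.24 against 1.85 and 0.740 CPM (log2 fold change -1.53, edgeR adjusted p = 0.0868). Of 8 corepressor genes none passed, and 3 had an unadjusted p under 0.05, all lower (11.5% of all genes), with 1 called by DESeq2 and 0 by limma-voom and limma-trend. Gps2, a subunit of the NCoR complex, had 18.2 and 20.5 against 10.8 and 12.5 CPM (log2 fold change -0.73, edgeR adjusted p = 0.0702), and Lcor had a log2 fold change of -0.88 (edgeR adjusted p = 0.0982).

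Known target genes of the receptors were read from lists, without a claim that a receptor drove them here. Together with the coregulators, 79 of these genes were tested and 5 passed an edgeR adjusted p of 0.05, all higher in DDI2-KO-labelled livers, where 1.33% of all genes tested were called higher and 2.53% in either direction. For the liver X receptors 0 of 10 targets passed, with 2 at an unadjusted p under 0.05 and 1 call by DESeq2 (0 by limma-voom and limma-trend), and the smallest p were those of the phospholipid transfer gene Pltp (log2 fold change 0.85, edgeR adjusted p = 0.0989) and the sterol transporter gene Abcg8 (-0.62, adjusted p = 0.178). Of 14 CAR and PXR targets, Gadd45b, a stress-inducible growth arrest gene, was higher with 0.952 and 1.00 CPM in WT and 3.09 and 3.83 CPM in DDI2-KO-labelled livers (log2 fold change 1.82, edgeR adjusted p = 0.0361). Of these 14, 7 log2 fold changes were positive and 7 negative. At an unadjusted p under 0.05 by edgeR there were 2 (23.5% of all genes), Gadd45b and Por, which was lower (-1.02, edgeR adjusted p = 0.0833). The drug-metabolising genes Cyp2b10 (0.27, adjusted p = 0.766) and Cyp3a11 (-0.27, adjusted p = 0.400) of this list did not pass edgeR's test and are named for their place in it after their values were seen. For retinoic acid, 0 of 5 tested targets passed, with 0 at an unadjusted p under 0.05 and 0 by the other tools, and Cyp26b1, which breaks down retinoic acid, had 26.4 and 3.82 CPM in WT and 4.83 and 2.52 CPM in DDI2-KO-labelled livers. WT library 1 stood high and the groups overlapped, and the log2 fold change of Cyp26b1 was -2.03 (edgeR adjusted p = 0.408), -0.048 without that library and -2.83 without WT library 2 (adjusted p = 0.00216).

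Of 6 thyroid hormone targets, 2 were higher. Me1, the cytosolic malic enzyme that supplies NADPH for lipogenesis, had 75.2 and 77.9 CPM in WT and 239 and 246 CPM in DDI2-KO-labelled livers (log2 fold change 1.66, edgeR adjusted p = 0.0103). Of the 50-base stretches of Me1, 26.5% occur in transcripts of other genes. Gpd2, the mitochondrial glycerol-3-phosphate dehydrogenase, had 33.0 and 30.8 against 55.6 and 65.3 CPM (log2 fold change 0.92, edgeR adjusted p = 0.0393). Of 12 HNF4A targets tested, G6pc, the glucose-6-phosphatase of gluconeogenesis, was higher at 119 and 71.5 CPM in WT against 259 and 409 CPM (log2 fold change 1.81, edgeR adjusted p = 0.0429).

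Of 8 PPAR targets, Pdk4, the kinase that restrains pyruvate oxidation in fasting, was higher at 6.78 and 6.93 CPM in WT against 35.5 and 32.6 CPM (log2 fold change 2.31, edgeR adjusted p = 0.00911). Of these 8, 6 log2 fold changes were positive and 2 negative. At an unadjusted p under 0.05 by edgeR, 3 were higher and 1 lower (12.0% and 11.5% of all genes). The lower one was Cyp4a14 (-1.53, edgeR adjusted p = 0.105). All 6 ERR targets had a positive log2 fold change and 5 an unadjusted p under 0.05 (12.0% of all genes tested were higher at this level), but 0 passed after adjustment by edgeR, 1 by DESeq2 and 0 by limma-voom and limma-trend. They were led by Idh3a (0.55, adjusted p = 0.0942) and Atp5b (0.59, adjusted p = 0.108), which encode subunits of a citrate cycle enzyme and of ATP synthase. Under other tools the number of these 79 genes past the threshold ran from 3 with limma-voom to 16 with DESeq2. Me1 and Pdk4 passed under all 14 alternatives, G6pc under 12, Gadd45b under 11 and Gpd2 under 9. Leaving out WT library 1 or WT library 2 took Gadd45b and Gpd2 above the threshold, and leaving out either DDI2-KO library did so for G6pc.

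The calls among the receptors depended on the test used. Nr2f6 had an adjusted p under 0.05 with DESeq2 (0.0445) and in edgeR with no filter on low counts (0.0149), always higher. It did not pass with limma-voom (adjusted p = 0.0817) or limma-trend (0.0868). Esr1 passed in edgeR with no filter (0.0205), but not with DESeq2 (0.0572), limma-voom (0.100) or limma-trend (0.103). With 1 library left out, the log2 fold change ran from 0.59 to 0.76 for Nr2f6 and from 0.46 to 0.76 for Esr1. Nr2f2 passed with no filter (0.0413). Fits with 1 library left out are given here by log2 fold change only. Without DDI2-KO library 2 it was -0.91 for Nr2f2 and -0.78 for Rora. Without DDI2-KO library 1 their log2 fold changes were smaller, -0.34 for Nr2f2 and -0.21 for Rora. In the 14 alternatives, the sign of the log2 fold change was the same throughout for 20 of the 29 receptors.

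**Figure D5:**
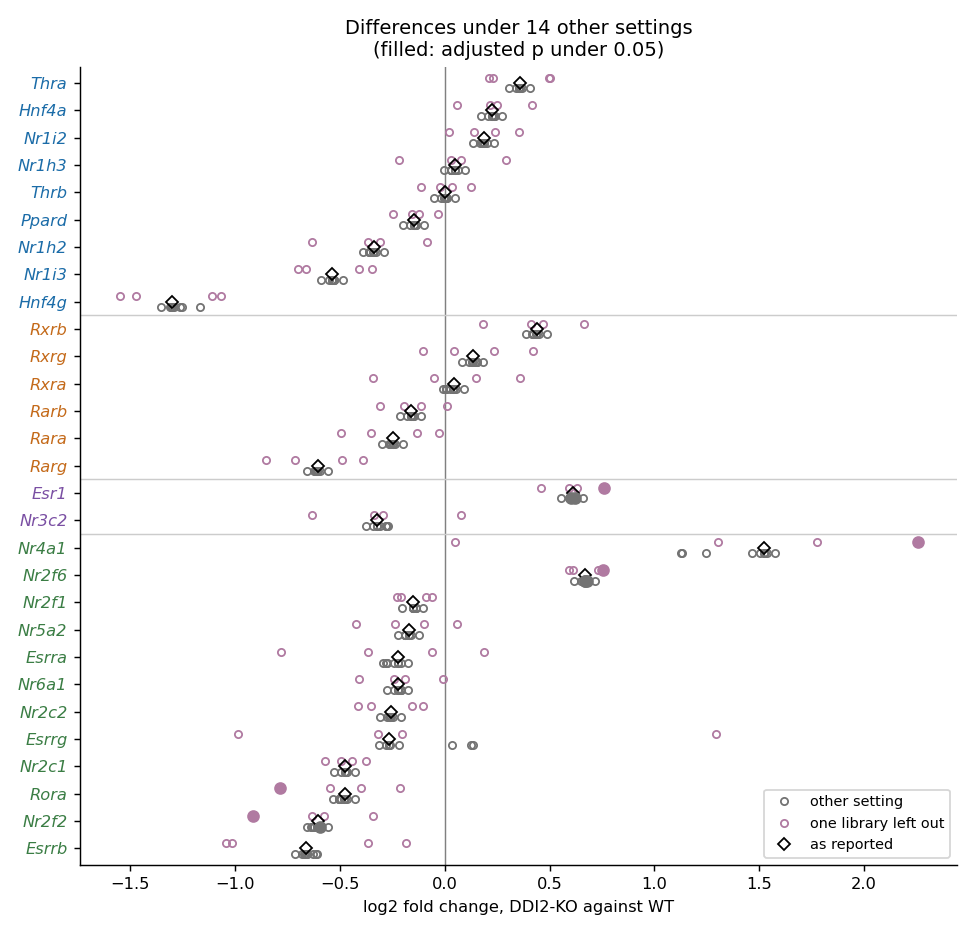
Log2 fold change of the 29 tested receptors, DDI2-KO-labelled livers against WT, as reported (diamonds), with 1 library left out (purple) and under the other settings (grey), where filled symbols mark an adjusted p under 0.05. Nr2f6 stays between 0.59 and 0.76 with a library left out, whereas Nr4a1 moves from 0.05 to 2.25 and Esrrg from -0.99 to 1.30.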

How the data were processed

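Liver mRNA of 2 WT and 2 DDI2-KO mice was sequenced from TruSeq Stranded mRNA libraries. The authors deposited raw counts per Ensembl gene for each library, and per the submitters' processing notes these came from cutadapt 1.8, STAR 2.5.2b and HTSeq 0.6.1 with GRCm38. The strand setting and annotation release are not given in the sources used here. HTSeq's summary lines, which name no gene, were left out of library sizes. Symbols, exon lengths and overlaps were taken from GENCODE M21, which holds 48349 of the 48709 identifiers.

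The genotypes were compared in edgeR 4.0.16 (R 4.3.3). Genes were kept by filterByExpr and scaled by TMM, a robust glmQLFit was followed by glmQLFTest on genotype, and p-values of the 13699 genes were adjusted by Benjamini-Hochberg. A standard error is the log2 fold change divided by the square root of F, and intervals are 95% from the t distribution of the fit. The procedure was tested on simulated data. Replicate libraries differed by more than counting noise (chi-square over its degrees of freedom was 64.7 in the WT pair, 34.7 in the DDI2-KO pair) and were counted as separate samples. The study gives them as biological replicates, and p-values measure only the spread between them.

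The receptors and lists were chosen with earlier results of these data known. Receptors with a mean of at least 1 CPM were named with all values. From each list of coregulators or targets, genes with an adjusted p under 0.05 were named or, with none, the 2 with the smallest p. One gene that this rule names is not reported here. Hnf4g, Nr2f1 and the receptors under the filter are given by reads, and Egr1, Cyp2b10, Cyp3a11, Por, Cyp4a14 and the neighbouring genes were added to this rule. Of 13 HNF4A targets, 12 matched a symbol. Alternatives were RLE, upper-quartile and no factors, DESeq2 1.42.0, limma 3.58.1 (the study's test family, as voom, and trend with a prior count of 2), other filters, no robust estimation, a replicate block and leaving out each library, and were applied to the named list genes after seeing the data.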

Additional observations from a re-analysis of the deposited data

How the results depend on the processing

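With 2 libraries per genotype, the number of mice limits precision more than depth does, and a library left alone in its group was assumed to vary like the other group. All genes called with an adjusted p under 0.05 numbered 346, and 932 with DESeq2, 136 with limma-voom, 139 with limma-trend, 1544 with no filter on low counts, 152 with no robust estimation and 153 to 631 with 1 library left out. Calls that were higher made up 52.6%, against 39.7% with upper-quartile factors and 60.8% with library totals only. Receptors called numbered 0, and 1 with DESeq2, 3 with no filter and 0 to 3 with 1 library left out. Coregulator and target genes called numbered 5, and 16 with DESeq2, 3 with limma-voom, 17 with no filter and 4 to 8 with 1 library left out. The receptor median of -0.17 stayed between -0.22 and -0.10.

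The labels give both genotypes replicate numbers 1 and 2 and do not say that the numbers pair libraries. Same-numbered libraries did not deviate together (r = 0.0391 over 13699 genes, 2 pairs). With 2 pairs, this value cannot decide whether same-numbered libraries share more than a number. With the replicate block 1108 genes, 2 receptors and 15 coregulator and target genes were called, the receptors being Nr2f6 (adjusted p = 0.0399 from edgeR) and Esr1 (0.0480), and Dusp1 was not called.

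In 20 of 29 receptors no alternative turned the direction (Hnf4g and Nr2f1 were not kept at a mean of at least 1 CPM). It turned for Nr1h3 (-0.00135 with upper-quartile factors), Rxra (-0.00849 with upper-quartile factors), Thrb (0.048 with library totals only, 0.00422 with limma-voom, 0.00462 with limma-trend, 0.00949 with no filter, 0.00416 with the replicate block) and Esrrg (0.12 with limma-voom, 0.13 with limma-trend, 0.037 with the replicate block). With 1 library left out, Nr1h3 ranged from -0.22 to 0.29, Rxra from -0.34 to 0.36, Thrb from -0.11 to 0.13, Esrrg from -0.99 to 1.30, Nr5a2 from -0.42 to 0.057, Esrra from -0.78 to 0.19, Nr3c2 from -0.63 to 0.078, Rarb from -0.31 to 0.00913 and Rxrg from -0.10 to 0.42. The cause was not tested.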

Other observations

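Outside the 37 genes, 12 further nuclear receptors were listed, of which 10 were tested. Of these 10, 2 passed an edgeR adjusted p of 0.05, as did 2.53% of all genes tested. At an unadjusted p under 0.05 by edgeR there were 5 (23.5% of all genes), 3 higher and 2 lower. The groups did not overlap in 8 of the 10 (55.7% of all genes). Nr1d2 (REV-ERBβ), a heme-binding repressor of the circadian clock, was lower, with 92.1 and 105 CPM in WT and 44.4 and 49.3 CPM in DDI2-KO-labelled livers (log2 fold change -1.08, adjusted p = 0.0289). Pparg, the receptor of adipogenesis and lipid storage, was higher, with 9.67 and 12.2 CPM in WT and 21.8 and 22.8 CPM in DDI2-KO-labelled livers (log2 fold change 1.03, edgeR adjusted p = 0.0404). Adipocyte markers were at or near 0 in every library, at most 0.0870 CPM in sum. Pparg missed the threshold under limma-voom, limma-trend, no robust estimation and without either WT library, and Nr1d2 without WT library 2. Nr0b2 (SHP), which represses bile acid synthesis, had 11.2 and 17.2 CPM in WT and 33.1 and 19.0 CPM in DDI2-KO-labelled livers (log2 fold change 0.88, edgeR adjusted p = 0.160), and the bile acid receptor gene Nr1h4 (FXR) had 102 and 124 against 179 and 153 CPM (0.55, adjusted p = 0.126). Both were named after their values were seen. Among the remaining marker lists, the 6 Kupffer cell markers gave 0 calls by edgeR (1 at an unadjusted p under 0.05, and 1 by DESeq2), the 5 biliary markers 0 (1), the 5 lymphocyte markers 0 (0), the 1 acinar marker tested 0 (0) and the 3 erythroid markers tested 1, Hba-a1, which was lower (log2 fold change -1.94, edgeR adjusted p = 0.0338, but 0.196 and 0.213 without DDI2-KO library 1 and 2). Of the 50-base stretches of Hba-a1, 67.5% occur in transcripts of other genes, which makes its count less certain.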
